A study of Arabidopsis thaliana with 9 samples.

Results

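The genes described here are 10 loci of sulfate assimilation and of the response to sulfur shortage in Arabidopsis thaliana, out of 33602 loci counted. They were chosen by locus identifier: the adenylylsulfate reductases APR1 (AT4G04610), APR2 (AT1G62180) and APR3 (AT4G21990), the deficiency regulators SDI1 (AT5G48850), SDI2 (AT1G04770), LSU1 (AT3G49580) and LSU2 (AT5G24660), and the genes of sulfur recycling and release BGLU28 (AT2G44460), GGCT2;1 (AT5G26220) and SULTR4;2 (AT3G12520). The list was drawn up with earlier results of these data known. All 10 were found in the count files. Polyadenylated RNA was sequenced from 3 libraries each of the wild type, the insertion line pdx3-3 (SALK_054167C) and the insertion line pdx3-4 (GK-260E03), which the labels call biological replicates. All plants were of the ecotype Col-0, were grown on soil under 16 h of light and 8 h of dark, and were harvested at 21 days as whole rosettes. Each mutant is 1 insertion line, and the number of rosettes behind a library is not given in the sources used here. PDX3 is the oxidase that makes pyridoxal 5'-phosphate, the active form of vitamin B6, from its salvage precursors, and pyridoxal 5'-phosphate is the cofactor of several enzymes of cysteine and methionine metabolism.

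Plants take up sulfate, activate it with ATP, and reduce the adenylylsulfate so formed to sulfite through the APR enzymes, the main point of control of the pathway. Sulfite reductase makes sulfide, which O-acetylserine (thiol) lyases join to O-acetylserine to form cysteine, the source of methionine and glutathione. When sulfur is short, plants induce uptake and reduction, release sulfate stored in vacuoles, break down glutathione and glucosinolates, and repress glucosinolate synthesis, and transcripts such as SDI1, the LSU genes, BGLU28 and GGCT2;1 are widely used as markers of that state.

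The promoter windows of GGCT2;1 and SDI1, the members with the largest fold changes in both mutants, are shown. The rule set for printing was a CATTGAA match, which only GGCT2;1 had among the members. The SDI1 window was added after its fold change was seen. Each window runs from 250 bases before the annotated start to 50 bases after it, was read 5' to 3' on the gene's own strand from the RefSeq annotation of the build TAIR10.1, and is printed in lower case. Capitals mark matches on either strand to GAGAC, the core of the sulfur-responsive element SURE, and to CATTGAA, letters of the UPE box. The GGCT2;1 window lies at chr5:9164835-9165134 on the minus strand, and the SDI1 window at chr5:19807804-19808103 on the minus strand.
GGCT2;1: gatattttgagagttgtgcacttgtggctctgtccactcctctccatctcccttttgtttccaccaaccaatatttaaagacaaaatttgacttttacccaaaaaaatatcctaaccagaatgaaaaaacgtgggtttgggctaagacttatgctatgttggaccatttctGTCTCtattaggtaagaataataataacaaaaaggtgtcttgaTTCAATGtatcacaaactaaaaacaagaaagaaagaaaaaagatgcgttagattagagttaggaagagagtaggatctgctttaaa
SDI1: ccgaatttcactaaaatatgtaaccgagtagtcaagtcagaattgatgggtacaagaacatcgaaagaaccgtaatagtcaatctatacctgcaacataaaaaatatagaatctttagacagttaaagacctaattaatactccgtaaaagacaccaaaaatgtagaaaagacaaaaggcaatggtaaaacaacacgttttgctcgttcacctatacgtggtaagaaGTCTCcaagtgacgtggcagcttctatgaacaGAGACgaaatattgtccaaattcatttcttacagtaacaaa
In the GGCT2;1 window the GAGAC match, read as its reverse complement, began 79 bases before the start, and the CATTGAA match, also as its reverse complement, began 36 bases before it. The SDI1 window held GAGAC 23 bases before the start as the reverse complement and again at base 10 of the transcript. GAGAC was found in the windows of 4 of the 10 members (40%): SDI1, LSU2, BGLU28 and GGCT2;1. It occurred in 32.8% of 27443 promoters of the same 300 bases, so its share among the members was close to that background. CATTGAA was found in 1 of the 10 members, against 6.34% of all promoters. These are matches of letters in a short window and say nothing of which factors act there.

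The libraries held 15912737 to 21938941 counts. PDX3 (AT5G49970) was at 78.7 to 90.1 CPM (the count as a share of the library's total, scaled by 1e+06) in the wild type, 8.22 to 10.8 CPM in pdx3-3 and 42.7 to 51.5 CPM in pdx3-4, so the libraries follow their labels. Libraries 1 and 2 of pdx3-3 stood apart in their share of chloroplast-encoded counts (0.536% and 0.174%, against 0.0162% to 0.0532% elsewhere) and of ribosomal RNA counts (0.774% and 0.242%, against 0.012% to 0.0608%). Results were therefore also computed without both, which leaves 1 library in pdx3-3. Where a call was lost in that fit, an effect of these libraries and the loss of replicates cannot be told apart. Leaf mesophyll markers (4 of 4 detected) summed to 3.88e+04 to 4.11e+04 CPM in the wild type, 3.07e+04 to 3.44e+04 CPM in pdx3-3 and 3.15e+04 to 3.41e+04 CPM in pdx3-4. The 5 root markers summed to 38.5 to 43.0 CPM in the wild type, 19.7 to 49.0 CPM in pdx3-3 and 39.1 to 61.2 CPM in pdx3-4, nearly all of it PYK10, and the other 4 had at most 3 counts in any library. The 4 flower markers summed to 3.29 to 4.19 CPM in the wild type, 1.32 to 3.22 CPM in pdx3-3 and 0.433 to 1.46 CPM in pdx3-4. The lower sums were those of AG, at 2.88 ± 0.69 CPM (SD, n = 3) in the wild type, 0.544 ± 0.043 in pdx3-3 and 0.270 ± 0.073 in pdx3-4. AP1, AP3 and PI were each below 1 CPM on average in every genotype, and their means were higher in pdx3-3 than in the wild type, with AP1 and AP3 not called and PI not tested. The part of these differences in the results below was not tested, and in whole rosettes fewer cells of a type and less RNA per cell cannot be told apart.

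Both mutants had more transcript of every member that passed the filter on low counts. In pdx3-3 all 9 tested members rose against the wild type, and in pdx3-4 all 9 rose as well, by edgeR's quasi-likelihood test at a Benjamini-Hochberg adjusted p under 0.05 over 18783 genes. The background was broad: in pdx3-3, 19.0% of all tested genes were called higher and 17.5% lower, and in pdx3-4, 20.9% were called higher and 18.4% lower. The median log2 fold change of the 9 members was 1.15 in pdx3-3 and 0.87 in pdx3-4, while that of all tested genes was -0.026 and -0.015. As the members were chosen with earlier results of these data known, their count of higher calls is not independent of these data. Both comparisons use the same 3 wild-type libraries. The 9 members did not pass the filter through the mutants alone, since each had at least 42 counts in every library. Without libraries 1 and 2 of pdx3-3 the counts were again 9 of 9 in each mutant. Upper-quartile scaling moved the median of all genes to -0.149 in pdx3-3 and -0.132 in pdx3-4 and the calls to 2879 higher and 5553 lower and to 3090 higher and 5317 lower, against 3562 and 3284 and 3921 and 3448 as reported. Scaling by library size only gave 4147 higher and 2531 lower in pdx3-3 and 4440 and 2778 in pdx3-4. The members' direction was the same under both scalings.

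**Figure D1:**
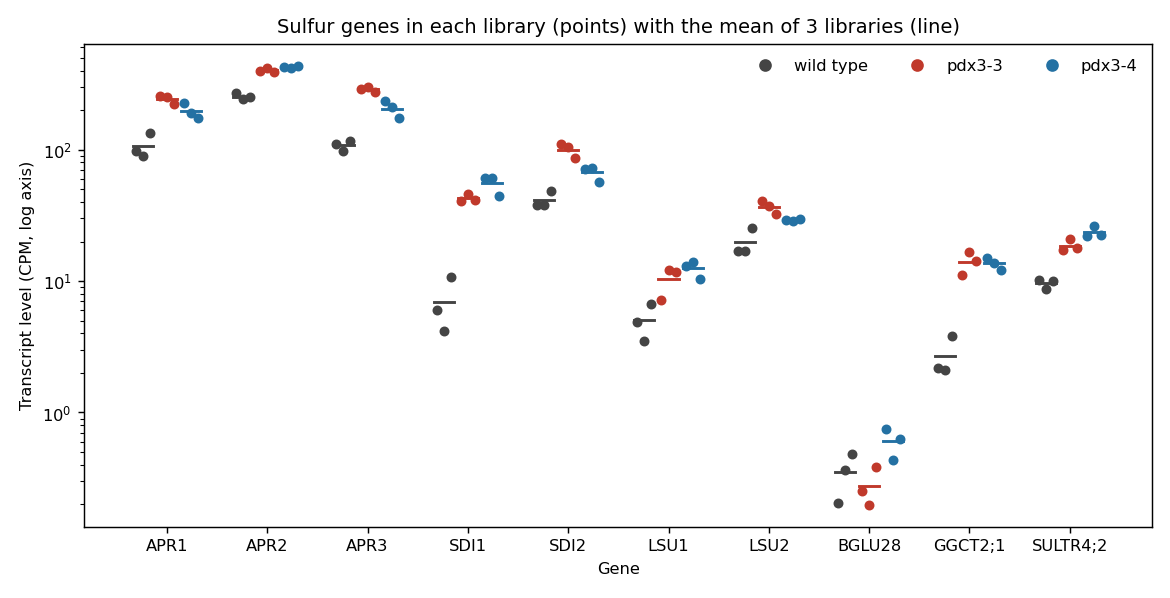
Transcript level in CPM (log axis) of the 10 sulfur genes (x axis) in each of the 9 libraries (points, coloured by genotype), with the mean of 3 libraries as a line. For every gene but BGLU28, all 6 mutant points lie above the 3 wild-type points, with the smallest gap at LSU1 (6.74 against 7.16 CPM), and BGLU28 lies below 1 CPM throughout. The share of all genes whose libraries separate in this way was not computed.

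The reductases come first in the pathway's order. APR1, on chromosome 4 (chr4:2324878-2327064, plus strand), stood at 97.1, 89.1 and 134 CPM in the wild type, at 256, 254 and 224 CPM in pdx3-3 and at 227, 189 and 173 CPM in pdx3-4. Every mutant library lay above the highest wild-type library, which was library 3, and pdx3-3 and pdx3-4 overlapped. The log2 fold change was 1.15 (SE 0.14, adjusted p = 8.26e-05) in pdx3-3 and 0.83 (SE 0.14, adjusted p = 0.000701) in pdx3-4. APR2, on chromosome 1 (chr1:22975530-22977885, minus strand), the isoform that carries most of the leaf reductase activity in Col-0, was at 269, 241 and 252 CPM in the wild type, 399, 421 and 390 CPM in pdx3-3 and 430, 420 and 434 CPM in pdx3-4. Both mutants lay above the wild type and touched each other at 420 and 421 CPM, and the change was the smallest of the APR genes, with a log2 fold change of 0.61 (SE 0.068, adjusted p = 5.04e-05) in pdx3-3 and 0.70 (SE 0.068, adjusted p = 1.96e-05) in pdx3-4. APR3, on chromosome 4 (chr4:11657008-11659167, minus strand), was at 110, 98.1 and 116 CPM in the wild type, at 289, 301 and 275 CPM in pdx3-3 and at 233, 211 and 174 CPM in pdx3-4. No APR3 groups overlapped, and pdx3-3 was the highest. The log2 fold change was 1.36 (SE 0.096, adjusted p = 1.95e-06) in pdx3-3 and 0.87 (SE 0.095, adjusted p = 4.19e-05) in pdx3-4.

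Per kb of exon, which allows levels of different genes to be compared, the APR genes together stood at 238 ± 19.3 CPM per kb (SD, n = 3) in the wild type, 481 ± 22.7 in pdx3-3 and 423 ± 29.2 in pdx3-4. APR2 made up 52.2% ± 3.6 of that summed level in the wild type, 40.9% ± 0.81 in pdx3-3 and 49.5% ± 3.7 in pdx3-4. APR3 made up 24.9% ± 0.16, 32.8% ± 0.17 and 26.5% ± 2.2. In pdx3-3 the APR3 share lay above, and the APR2 share below, all wild-type libraries, while the shares of pdx3-4 overlapped those of the wild type. The coding sequences of APR1 and APR3 were 80.1% identical and their longest identical stretch of transcript was 41 bases, the longest between any members of these families, so reads from shared stretches could have been counted for either.

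**Figure D2:**
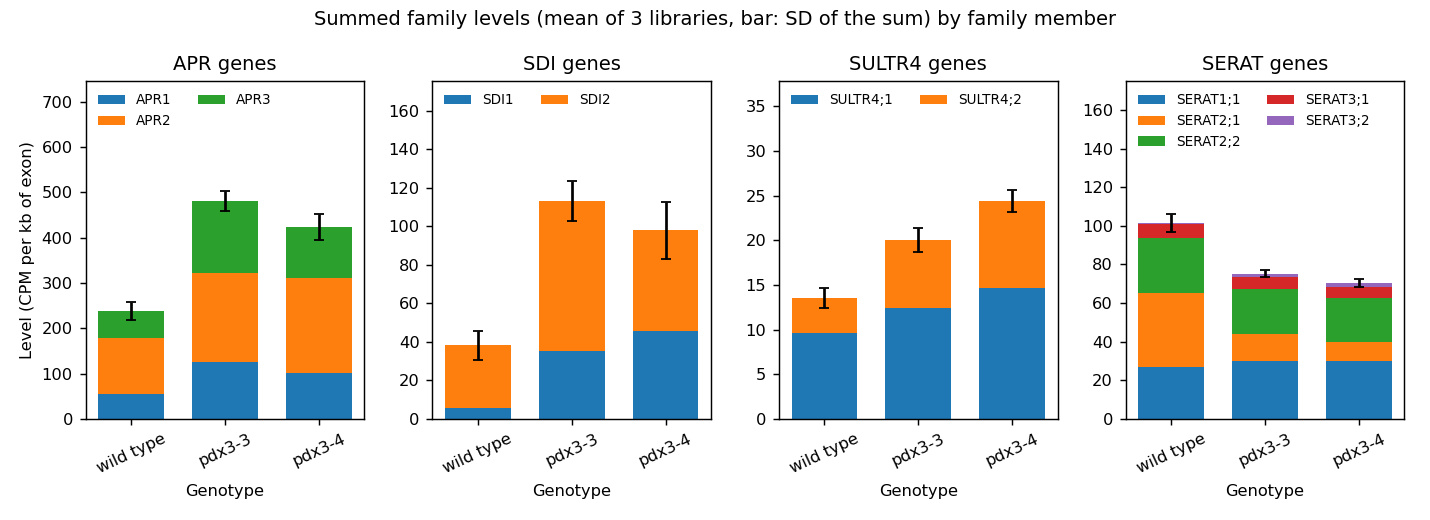
Summed level (CPM per kb of exon, y axis) of the APR, SDI, SULTR4 and SERAT families in the 3 genotypes (x axis), each bar a stack of the mean level of its members over 3 libraries, with the SD of the sum. The APR, SDI and SULTR4 sums are higher in both mutants than in the wild type, and the SERAT sum and its SERAT2;1 segment are lower.

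SDI1, on chromosome 5 (chr5:19805437-19807853, minus strand), encodes a tetratricopeptide-repeat protein that binds the transcription factor MYB28 and represses aliphatic glucosinolate synthesis under sulfur shortage. It was at 6.02, 4.19 and 10.7 CPM in the wild type, at 40.6, 46.1 and 41.5 CPM in pdx3-3 and at 61.2, 60.8 and 44.5 CPM in pdx3-4. The lowest mutant library lay far above the highest wild-type library, and no other member had as large a fold change. Its log2 fold change was 2.58 (SE 0.24, adjusted p = 1.36e-05) in pdx3-3 and 2.96 (SE 0.24, adjusted p = 6.42e-06) in pdx3-4. Among the 18783 tested genes ordered from the highest fold change, SDI1 was at rank 505 in pdx3-3 and at rank 212 in pdx3-4, so genes with larger folds were numerous.

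SDI2, on chromosome 1 (chr1:1336274-1337849, minus strand), the close relative of SDI1 with the same known repressive role, was at 37.7, 38.2 and 48.8 CPM in the wild type, at 110, 104 and 86.2 CPM in pdx3-3 and at 71.8, 72.7 and 56.9 CPM in pdx3-4. The 3 groups did not overlap and pdx3-4 lay between the others. The log2 fold change was 1.21 (SE 0.12, adjusted p = 2.74e-05) in pdx3-3 and 0.64 (SE 0.12, adjusted p = 0.00204) in pdx3-4. SDI1 made up 14.6% ± 4.2 of the summed SDI level per kb in the wild type, 31.3% ± 2.9 in pdx3-3 and 46.5% ± 1.1 in pdx3-4. SDI2 was the larger component in every genotype.

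The LSU genes (RESPONSE TO LOW SULFUR) encode small coiled-coil proteins without a known enzyme activity that interact with many stress-related proteins. LSU1, on chromosome 3 (chr3:18374908-18375940, minus strand), was at 4.89, 3.51 and 6.74 CPM in the wild type, at 7.16, 12.2 and 11.6 CPM in pdx3-3 and at 13.1, 14.0 and 10.3 CPM in pdx3-4. Library 1 of pdx3-3 lay close above the highest wild-type library, with 114 counts against 126 counts in the deeper wild-type library 3, while pdx3-4 was clear of the wild type. Its log2 fold change was 1.00 (SE 0.23, adjusted p = 0.00651) in pdx3-3 and 1.27 (SE 0.23, adjusted p = 0.00136) in pdx3-4. LSU2, on chromosome 5 (chr5:8443279-8444101, minus strand), was at 16.9, 16.8 and 25.4 CPM in the wild type, at 40.5, 37.2 and 32.7 CPM in pdx3-3 and at 29.4, 28.6 and 29.6 CPM in pdx3-4. The groups did not overlap, and the pdx3-4 libraries were within about 1 CPM of each other, little above wild-type library 3. The log2 fold change was 0.85 (SE 0.14, adjusted p = 0.000744) in pdx3-3 and 0.52 (SE 0.14, adjusted p = 0.0124) in pdx3-4. The pdx3-4 call for LSU2 was lost without wild-type library 2 (adjusted p = 0.0502) and with upper-quartile scaling (adjusted p = 0.0501), in the same edgeR test.

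The LSU genes lie in tandem pairs, LSU3 next to LSU1 on chromosome 3 at a distance of 1760 bases and LSU4 next to LSU2 on chromosome 5 at 1914 bases, with 0 annotated genes between them. LSU3 (AT3G49570), the neighbour of LSU1, also rose, with a log2 fold change of 1.00 (SE 0.21, adjusted p = 0.00403) in pdx3-3 and 1.05 (SE 0.21, adjusted p = 0.00279) in pdx3-4, but the pdx3-3 call was lost without libraries 1 and 2 of pdx3-3 (log2 0.71, adjusted p = 0.129). LSU4 (AT5G24655), the neighbour of LSU2, was at 0.729 to 1.95 CPM over all 9 libraries and was not called, with log2 fold changes of 0.56 (SE 0.27, adjusted p = 0.133) and -0.32 (SE 0.29, adjusted p = 0.415). Without wild-type library 3 its pdx3-3 value was called (log2 0.86, adjusted p = 0.0334). The coding sequences of LSU2 and LSU4 were 87% identical, with at most 30 identical bases in a row.

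GGCT2;1, on chromosome 5 (chr5:9162969-9164884, minus strand), is a cytosolic gamma-glutamyl cyclotransferase that breaks down glutathione. It was at 2.16, 2.1 and 3.80 CPM in the wild type, at 11.1, 16.6 and 14.1 CPM in pdx3-3 and at 15.1, 13.7 and 12.2 CPM in pdx3-4. The mutants overlapped each other and lay well above the wild type. Its log2 fold change was 2.34 (SE 0.21, adjusted p = 9.54e-06) in pdx3-3 and 2.30 (SE 0.21, adjusted p = 1.15e-05) in pdx3-4.

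SULTR4;2, on chromosome 3 (chr3:3967816-3972135, minus strand), exports sulfate from the vacuole. It was at 10.2, 8.71 and 10.06 CPM in the wild type, at 17.3, 20.8 and 17.9 CPM in pdx3-3 and at 22.2, 26.2 and 22.4 CPM in pdx3-4. The 3 groups did not overlap and were ordered wild type, pdx3-3, pdx3-4. Its log2 fold change was 0.89 (SE 0.10, adjusted p = 5.11e-05) in pdx3-3 and 1.24 (SE 0.098, adjusted p = 5.81e-06) in pdx3-4. Its paralogue SULTR4;1 (AT5G13550), the other vacuolar sulfate exporter, rose by less, with a log2 fold change of 0.31 (SE 0.084, adjusted p = 0.0137) in pdx3-3 and 0.56 (SE 0.083, adjusted p = 0.00036) in pdx3-4. That pdx3-3 call was lost with upper-quartile scaling (adjusted p = 0.0893), without wild-type library 2 (adjusted p = 0.0532), without pdx3-3 library 2 (adjusted p = 0.0589) and without pdx3-3 libraries 1 and 2 (adjusted p = 0.265). SULTR4;2 made up 29.1% ± 0.2 of the summed level of both per kb in the wild type, 38.0% ± 2.0 in pdx3-3 and 39.7% ± 3.5 in pdx3-4.

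BGLU28, on chromosome 2 (chr2:18346306-18350026, plus strand), is a beta-glucosidase that releases sulfur from glucosinolates and is among the most strongly induced genes of sulfur-starved plants. It was at the edge of detection, with 4, 8 and 9 counts in the wild type, 4, 4 and 8 in pdx3-3 and 16, 9 and 13 in pdx3-4. It failed the filter on low counts and was not tested with the other members. Levels were 0.351 ± 0.14 CPM (SD, n = 3) in the wild type, 0.277 ± 0.094 CPM in pdx3-3 and 0.603 ± 0.16 CPM in pdx3-4, with overlap between the wild type and each mutant. In a fit without the filter its log2 fold change was -0.38 (SE 0.49, adjusted p = 0.610) in pdx3-3 and 0.73 (SE 0.43, adjusted p = 0.249) in pdx3-4, by edgeR. Neither change was called. With SE values of 0.49 and 0.43, changes of BGLU28 as large as those of some other members could have gone uncalled at this depth. Its uncalled pdx3-4 value of 0.73 was above the 0.52 that was called for LSU2. Whether BGLU28 followed the other members cannot be decided from these values.

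**Figure D3:**
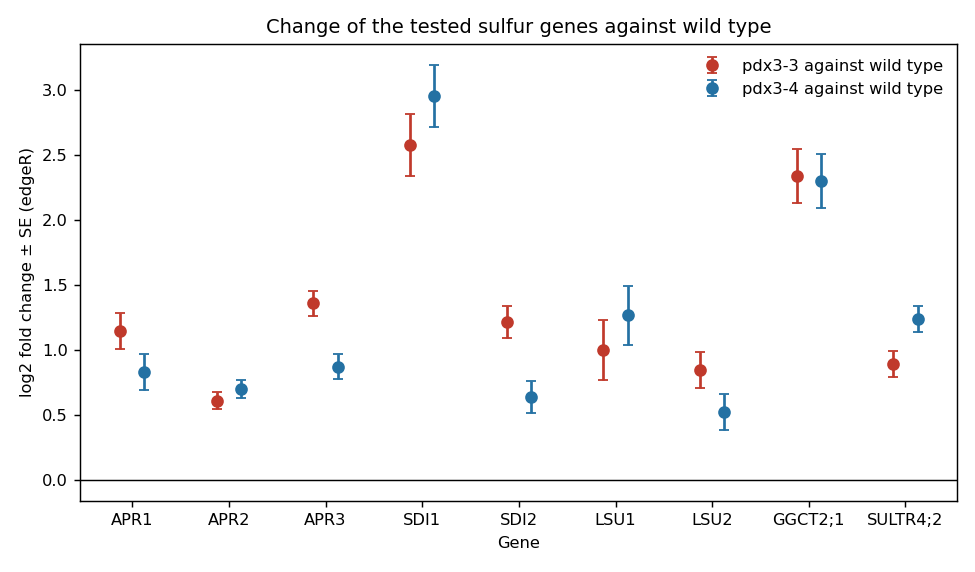
log2 fold change with its SE (y axis, edgeR) of the 9 tested sulfur genes (x axis) in pdx3-3 (red) and pdx3-4 (blue) against the same wild-type libraries. All values lie above 0, from 0.52 for LSU2 in pdx3-4 to 2.96 for SDI1 in pdx3-4.

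Ordered by level per kb of exon, APR2 was the highest member in each genotype, at 124 ± 6.7 CPM per kb (SD, n = 3) in the wild type, 197 ± 7.6 in pdx3-3 and 209 ± 3.5 in pdx3-4, and BGLU28 the lowest. In the wild type APR2 was followed by APR3 (59.3 ± 5.1 CPM per kb) and APR1 (55.1 ± 12.3), whose ranges overlapped, then by SDI2 (32.4 ± 4.9) and LSU2 (23.9 ± 6.0), which also overlapped. Below LSU2 and apart from it, SDI1 (5.74 ± 2.8) overlapped with LSU1 (5.70 ± 1.8), and LSU1 with SULTR4;2 (3.96 ± 0.34). GGCT2;1 was at 2.20 ± 0.79 CPM per kb, without overlap with SULTR4;2. In pdx3-3 the order was APR2, APR3, APR1, SDI2, LSU2, SDI1, LSU1, GGCT2;1, SULTR4;2 and BGLU28, and only LSU1 and GGCT2;1 overlapped among neighbours. In pdx3-4 SDI1 (45.7 ± 7.8 CPM per kb) stood above LSU2 (35.5 ± 0.66) without overlap. In pdx3-4 APR3 with APR1, SDI2 with SDI1, LSU1 with GGCT2;1 and GGCT2;1 with SULTR4;2 overlapped.

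Between the mutants, 3.32% of all tested genes were called higher in pdx3-3 and 2.84% lower. Of the 9 tested members 2 were called higher in pdx3-3, 0 lower, and 7 were not called. At an unadjusted p under 0.05 in edgeR 1 was lower, SULTR4;2, and DESeq2 and limma-voom called 0 lower. APR3 was higher in pdx3-3 by a log2 fold change of 0.49 (SE 0.094, adjusted p = 0.014, edgeR) and SDI2 by 0.57 (SE 0.12, adjusted p = 0.0211), with no overlap of libraries for either gene. Both calls were lost in some fits that left libraries out, while the direction held in all 21 alternatives. The log2 differences there were 0.395 to 0.574 for APR3 and 0.354 to 0.677 for SDI2. In such fits an effect of the library left out and the loss of replicates cannot be told apart. For APR3 the adjusted p was 0.0611 without pdx3-3 library 2, 0.0509 without pdx3-4 library 2, 0.059 without pdx3-4 library 3 and 0.275 without pdx3-3 libraries 1 and 2. For SDI2 it was 0.0603 without pdx3-3 library 1, 0.0782 without pdx3-3 library 2, 0.106 without pdx3-4 library 3 and 0.462 without pdx3-3 libraries 1 and 2. SULTR4;2 was lower in pdx3-3 by log2 -0.34 (SE 0.094) with an adjusted p of 0.0564, and was called without wild-type library 3 (adjusted p = 0.0452). LSU2 had a log2 difference of 0.33 (SE 0.14, adjusted p = 0.206), and was called without wild-type library 3 (adjusted p = 0.0372) or with only the compared groups in the fit (adjusted p = 0.045). The other log2 differences were 0.32 (SE 0.13) for APR1, -0.09 (SE 0.068) for APR2, -0.38 (SE 0.21) for SDI1, -0.27 (SE 0.21) for LSU1 and 0.035 (SE 0.17) for GGCT2;1, with adjusted p-values from 0.221 to 0.948 in edgeR. The sign for GGCT2;1 turned without pdx3-3 library 2 and without pdx3-4 library 3. PDX3 itself was lower in pdx3-3 than in pdx3-4 by log2 -2.29 (SE 0.12, adjusted p = 8.56e-06).

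Within genotypes the members deviated together in some libraries. Wild-type library 3 was the highest of its genotype for 7 of the 9 tested members, with a median deviation of 0.31 on the log2 CPM scale from the wild-type mean, against -0.018 for all tested genes. Wild-type library 2 was above the mean for 0 of 9. Library 2 of pdx3-3 was above its genotype's mean for 9 of 9, with a small median deviation of 0.062, against 0.0022 for all tested genes. Library 3 of pdx3-4 was below for 7 of 9, with a median of -0.135, against 0.0075 for all tested genes. The deviations of a gene within a genotype sum to 0, so its libraries are not independent here. The share of all genes on the same side of the mean was not computed. The deviations of SDI1 in the wild type spanned -0.58 to 0.68 on the log2 scale, the widest of the members, and LSU1 ran at -0.47 in pdx3-3 library 1.

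**Figure D4:**
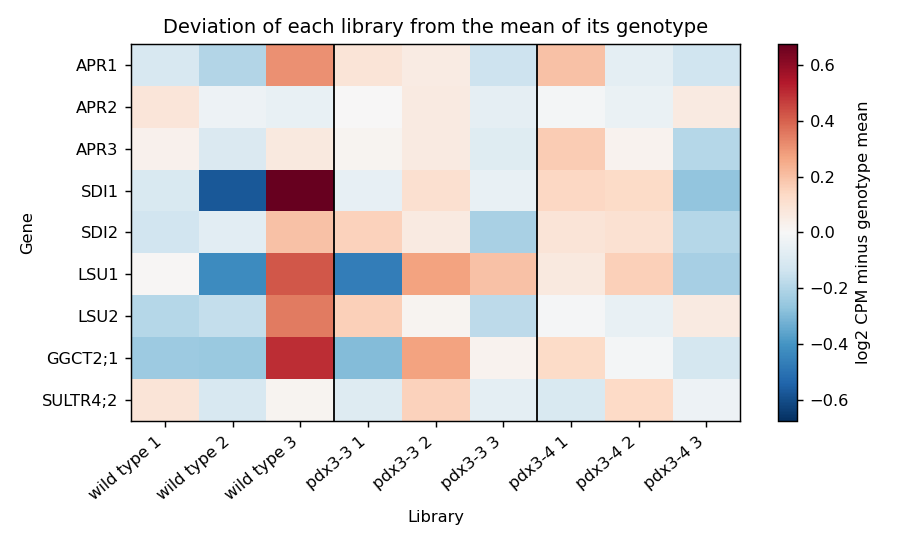
Deviation of each library (x axis) from the mean of its genotype for the 9 tested sulfur genes (y axis), in log2 CPM by colour (red above, blue below the mean). Wild-type library 3 is red for 8 of 9 genes and wild-type library 2 is blue for 9 of 9.

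The rest of sulfur metabolism did not move as a block. Of 57 other genes listed for uptake, activation, cysteine, glutathione and methionine metabolism and their regulators, 52 passed the filter. In pdx3-3 11 rose, 17 fell and 24 were not called, with a median log2 fold change of -0.18, and in pdx3-4 12 rose, 23 fell and 17 were not called, with a median of -0.19. Higher calls were thus 21.2% of the 52 in pdx3-3 and 23.1% in pdx3-4, near the 19.0% and 20.9% of all tested genes, and lower calls were 32.7% and 44.2%, against 17.5% and 18.4% of all tested genes. The medians of all tested genes were near 0, as given above. Like the members, these genes were listed with earlier results of these data known, so their counts are not independent of the data. Without libraries 1 and 2 of pdx3-3 the pdx3-3 counts were 7 higher and 11 lower, and with upper-quartile scaling 27 were lower. Between the mutants 1 of the 52, SERAT2;1, was higher in pdx3-3, 2 were lower, SULTR1;2 and GGCT2;2, and 49 were not called. The GGCT2;2 difference was log2 -0.35 (SE 0.087, adjusted p = 0.0417), a call lost under 11 of 21 alternative settings, among them without any 1 mutant library or wild-type library 1 (adjusted p 0.0555 to 0.442).

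Of the sulfate transporters, 8 of 11 were tested. In pdx3-3 2 rose and 4 fell, and in pdx3-4 3 rose and 3 fell, where all tested genes had 19.0% higher and 17.5% lower in pdx3-3 and 20.9% and 18.4% in pdx3-4. The same all-gene shares apply to each group of genes that follows. SULTR1;2 (AT1G78000), the main high-affinity uptake transporter of roots, was at 0.669, 0.547 and 0.803 CPM in the wild type, at 1.32, 2.82 and 1.86 CPM in pdx3-3 and at 3.61, 3.99 and 3.76 CPM in pdx3-4. It was low throughout but its groups did not overlap, with log2 fold changes of 1.53 (SE 0.29, adjusted p = 0.00189) and 2.44 (SE 0.27, adjusted p = 4.88e-05). Its difference between the mutants was log2 -0.91 (SE 0.23, adjusted p = 0.0474), a call that was lost under 11 of 21 alternative settings (adjusted p 0.0513 to 0.166), among them without any 1 library other than wild-type library 3 and pdx3-3 library 2. SULTR1;1, the uptake transporter most induced in starved roots, had 0 counts in all 9 libraries, which allows up to 3 counts, or 0.137 to 0.189 CPM, in a library. SULTR3;4 (AT3G15990) fell by 1.09 on the log2 scale in pdx3-3 (SE 0.26, adjusted p = 0.00712) and by 1.05 in pdx3-4 (SE 0.25, adjusted p = 0.00757), with wild-type library 3 the highest at 7.38 CPM. Its pdx3-3 call was lost without pdx3-3 libraries 1 and 2 (adjusted p = 0.0825). It overlaps 140 bases of a gene on the opposite strand, AT3G16000, which had 33902 counts in all.

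The ATP sulfurylases, which activate sulfate, split. In each mutant 2 of the 5 genes of activation and sulfite reduction rose, 1 fell and 2 were not called. APS1 rose with log2 fold changes of 0.48 (SE 0.079, adjusted p = 0.000844) and 0.44 (SE 0.079, adjusted p = 0.00124), and APS3 with 0.89 (SE 0.19, adjusted p = 0.00436) and 0.74 (SE 0.19, adjusted p = 0.0113). APS2, the isoform that also has a cytosolic form, fell by 0.66 (SE 0.10, adjusted p = 0.000415) and by 0.97 (SE 0.10, adjusted p = 2.94e-05). APS2 shares 117 bases with AT1G19910 on the opposite strand, which had 18590 counts over the 9 libraries. APS1 supplied 75.1% ± 2.5 of the summed APS level per kb in the wild type, 82.3% ± 0.64 in pdx3-3 and 83.2% ± 1.1 in pdx3-4. Sulfite reductase, SIR (AT5G04590), which takes the product of the APR enzymes, was not called, with log2 fold changes of 0.055 (SE 0.081, adjusted p = 0.630) and 0.14 (SE 0.081, adjusted p = 0.195). Its pdx3-4 value was called without wild-type library 3 (adjusted p = 0.0403).

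Of the 5 genes of the branch that makes and clears PAPS, the sulfate donor for glucosinolates, 0 rose in either mutant, and 0 at an unadjusted p under 0.05 in edgeR or by DESeq2 or limma-voom. In pdx3-3 1 fell and in pdx3-4 4 fell. The APS kinase APK3 fell by 0.60 (SE 0.14, adjusted p = 0.00617) and by 0.55 (SE 0.14, adjusted p = 0.00812), and was at an adjusted p of 0.0506 in pdx3-3 without libraries 1 and 2. APK1, a plastid APS kinase, was at -0.19 (adjusted p = 0.352) in pdx3-3 and fell by 0.56 (SE 0.15, adjusted p = 0.0138) in pdx3-4, with an adjusted p of 0.0591 without pdx3-4 library 3. The phosphatase SAL1 was at -0.24 (adjusted p = 0.0912) in pdx3-3, called with upper-quartile scaling (adjusted p = 0.0232), and fell by 0.58 (SE 0.10, adjusted p = 0.00123) in pdx3-4. MYB28 and MYB29, which activate aliphatic glucosinolate synthesis, fell in both mutants. MYB28 fell by 1.46 (SE 0.15, adjusted p = 3.14e-05) and by 1.66 (SE 0.15, adjusted p = 1.4e-05), and MYB29 by 0.95 (SE 0.20, adjusted p = 0.00383) and by 1.37 (SE 0.20, adjusted p = 0.000378). The MYB29 call in pdx3-3 was lost without pdx3-3 libraries 1 and 2 (adjusted p = 0.0715). MYB76, their relative, was at -1.0 (SE 0.38, adjusted p = 0.063) in pdx3-3 and fell by 1.48 (SE 0.39, adjusted p = 0.0125) in pdx3-4. Its pdx3-3 value was called without pdx3-3 library 2 (adjusted p = 0.0412), without libraries 1 and 2 (adjusted p = 0.0322) and with upper-quartile scaling (adjusted p = 0.0367), and its pdx3-4 call was lost without pdx3-4 library 3 (adjusted p = 0.0528).

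The genes listed for cysteine synthesis had 2 higher and 4 lower of 11 in pdx3-3, and 1 higher and 5 lower in pdx3-4. The lower genes of both mutants include DES1, which is a cysteine desulfhydrase and not an enzyme of synthesis. The higher genes were 18.2% of the 11 in pdx3-3, near the 19.0% of all genes, and 9.09% in pdx3-4, and the lower genes were 36.4% and 45.5%. SERAT2;1 (AT1G55920), the plastid serine acetyltransferase that makes O-acetylserine, was at 54.6, 55.2 and 55.6 CPM in the wild type, at 22.3, 17.9 and 19.7 CPM in pdx3-3 and at 16.0, 14.6 and 12.4 CPM in pdx3-4. The groups did not overlap, and SERAT2;1 fell by 1.52 (SE 0.097, adjusted p = 1.07e-06) and by 2.00 (SE 0.099, adjusted p = 6.38e-07) on the log2 scale. It supplied 37.4% ± 1.3 of the summed SERAT level per kb in the wild type, 18.3% ± 1.8 in pdx3-3 and 14.0% ± 1.3 in pdx3-4. It was higher in pdx3-3 than in pdx3-4 (log2 0.47, SE 0.10, adjusted p = 0.0221), a call lost without pdx3-3 library 1 (0.055), pdx3-3 library 3 (0.0501), pdx3-4 library 2 (0.0753), pdx3-4 library 3 (0.108), or pdx3-3 libraries 1 and 2 (0.160). DES1, a cytosolic cysteine desulfhydrase, fell by 1.02 (SE 0.11, adjusted p = 4.5e-05) and by 1.08 (SE 0.11, adjusted p = 2.97e-05), and the plastid O-acetylserine (thiol) lyase OASB fell by 0.40 (SE 0.079, adjusted p = 0.00254) and by 0.29 (SE 0.079, adjusted p = 0.0126). The cytosolic lyase OASA1 was at 0.21 (SE 0.070, adjusted p = 0.04) in pdx3-3, a call lost under 11 of 21 alternative settings (adjusted p 0.0555 to 0.347), among them without any 1 wild-type library, pdx3-3 library 2, or pdx3-4 library 1 or 2, and at 0.15 (adjusted p = 0.121) in pdx3-4, called with library size only (adjusted p = 0.0358). SERAT3;2, a minor serine acetyltransferase named after its values were seen, rose in pdx3-4 by log2 1.02 (SE 0.21, adjusted p = 0.00273), and in pdx3-3 by 0.66 (SE 0.21, adjusted p = 0.0329), where the call was lost under 9 of 21 alternative settings (adjusted p 0.0518 to 0.246), among them without wild-type library 1 or 2 and without pdx3-3 library 2 or 3. SERAT3;2 had 26 to 78 counts in a library and shares 144 bases with AT4G35630 on the opposite strand, which had 3197 counts in all. OASB shares 155 bases with AT2G43760 on the opposite strand, which had 4403, and 407 bases with AT2G43745 on its own strand, which had 59. SERAT2;1 shares 162 bases with AT1G55917 on the opposite strand, which is not among the counted loci. The part of these neighbours in the values was not tested.

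Of the 9 tested genes of glutathione synthesis and turnover, 3 rose and 2 fell in pdx3-3, and 3 rose and 3 fell in pdx3-4. The genes that fell were 22.2% and 33.3% of the 9, against 17.5% and 18.4% of all genes, and those that rose 33.3% in each, against 19.0% and 20.9%. Glutathione synthetase, GSH2, rose with log2 fold changes of 0.42 (SE 0.058, adjusted p = 0.000243) and 0.51 (SE 0.058, adjusted p = 5.09e-05). The gamma-glutamyl transpeptidases GGT4, of the vacuole, and GGT1, of the apoplast, rose as well, GGT4 with 0.64 (SE 0.079, adjusted p = 0.000105) and 0.40 (SE 0.079, adjusted p = 0.00218) and GGT1 with 0.91 (SE 0.13, adjusted p = 0.000368) and 0.52 (SE 0.13, adjusted p = 0.0103). GGT4, with 205 to 380 counts in a library, shares 173 bases with AT4G29220 on the opposite strand, which had 12895 counts in all. GGCT2;2, a paralogue of GGCT2;1, was not called in either mutant (log2 -0.12, adjusted p = 0.311, and 0.23, adjusted p = 0.0615). Of 5 methionine genes, 2 fell in pdx3-3 and 4 fell in pdx3-4, and 0 rose in either, also at an unadjusted p under 0.05 in edgeR and by DESeq2 and limma-voom. CGS1, the committing enzyme of methionine synthesis, fell by 0.61 (SE 0.064, adjusted p = 3.44e-05) and by 0.66 (SE 0.064, adjusted p = 1.91e-05), and methionine gamma-lyase, MGL, by 0.79 (SE 0.13, adjusted p = 0.000681) and by 1.06 (SE 0.13, adjusted p = 8.66e-05). MGL shares 38 bases with AT1G64670 on the opposite strand, which had 3919 counts in all. The methionine synthase MS2 was at -0.24 (adjusted p = 0.163) in pdx3-3, called without libraries 1 and 2 (adjusted p = 0.0300) and with upper-quartile scaling (adjusted p = 0.0431), and fell by 0.70 (SE 0.13, adjusted p = 0.00146) in pdx3-4.

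Of the 6 tested other deficiency genes and regulators, 2 rose and 1 fell in pdx3-3, and 3 rose and 0 fell in pdx3-4, where 1 (HY5) was lower at an unadjusted p under 0.05 in edgeR and 0 by DESeq2 and limma-voom. SHM7 (AT1G36370), a serine hydroxymethyltransferase-like protein of sulfur-starvation responses, was at 51.1, 46.8 and 58.7 CPM in the wild type, at 349, 367 and 335 CPM in pdx3-3 and at 432, 367 and 322 CPM in pdx3-4. The mutants overlapped each other and lay far above the wild type, with log2 fold changes of 2.69 (SE 0.11, adjusted p = 1.24e-07) and 2.79 (SE 0.11, adjusted p = 2.5e-07). SLIM1 (AT1G73730), the transcription factor that drives many sulfur-deficiency genes, was named after its values were seen. It was at 15.2 to 17.1 CPM in all 9 libraries and was not called, with log2 fold changes of -0.17 (SE 0.066, adjusted p = 0.068) and -0.12 (SE 0.066, adjusted p = 0.195), but was called lower with upper-quartile scaling (adjusted p = 0.00539 and 0.0168). HY5, a light-response factor that binds APR promoters, fell by 0.73 (SE 0.16, adjusted p = 0.00417) in pdx3-3, a call lost without pdx3-3 libraries 1 and 2 (adjusted p = 0.0784), and was at -0.34 (SE 0.15, adjusted p = 0.0997) in pdx3-4, called with upper-quartile scaling (adjusted p = 0.0400).

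**Figure D5:**
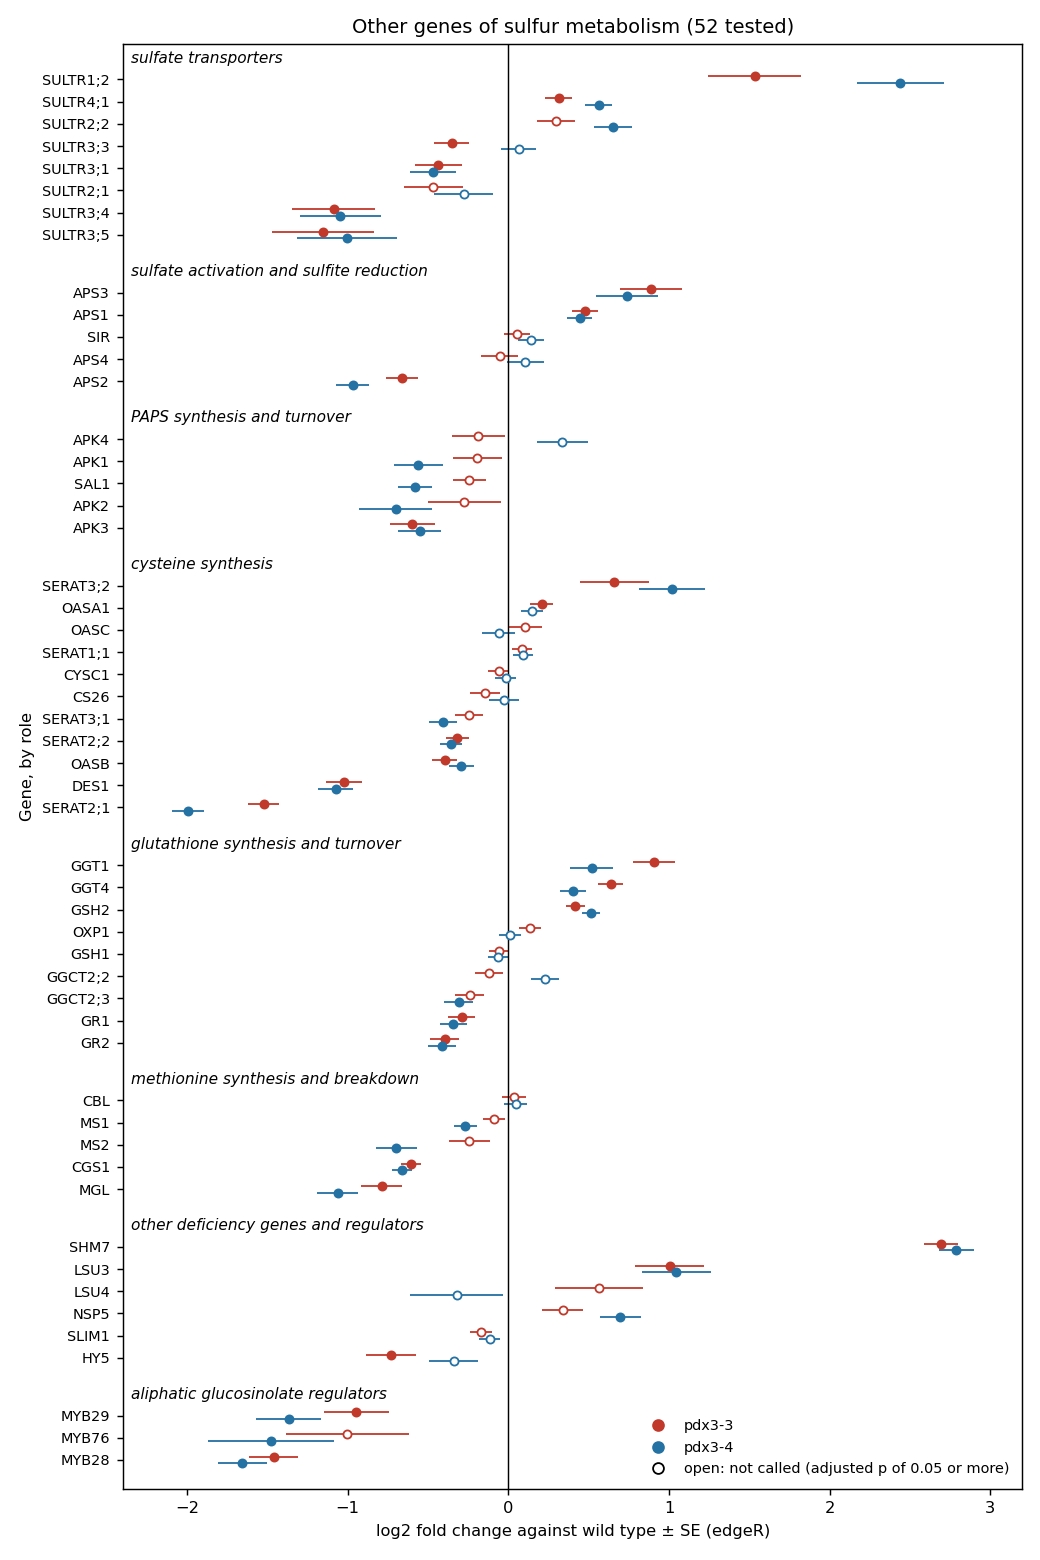
log2 fold change with its SE (x axis, edgeR) of the 52 tested other genes of sulfur metabolism (y axis, grouped by role) in pdx3-3 (red) and pdx3-4 (blue) against the same wild-type libraries. Filled points were called at an adjusted p under 0.05, open points were not. SHM7 lies farthest to the right at 2.69 and 2.79, and SERAT2;1 farthest to the left at -1.52 and -2.00.

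The pattern of the members was shared by many genes outside the pathway. Over the 9 libraries, the mean of the members' standardized log2 CPM had its highest Pearson correlations, among 13736 genes with at least 5 CPM on average, with AT1G59930 (r = 0.991), the MYB transcription factor gene MYB73 (AT4G37260, 0.988), AT3G21790 (0.988), AT5G03360 (0.985) and AT4G37240 (0.985). MYB73 was at 23.9 ± 6.4 CPM (SD, n = 3) in the wild type, 172 ± 20.1 in pdx3-3 and 115 ± 10.8 in pdx3-4. AT3G21790 moved much less, from 18.7 ± 1.8 CPM in the wild type to 25.4 ± 0.80 and 25.3 ± 0.67 CPM. A correlation of at least 0.9 was reached by 966 genes and of at least 0.95 by 242, and as the 9 libraries are of 3 genotypes the values mostly describe the gap between wild type and mutants. Of the pathway genes, APS1 (r = 0.983, rank 12), SHM7 (r = 0.983, rank 14) and LSU3 (r = 0.95, rank 253) came first.

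Some members share bases with genes on the opposite strand, and whether reads were counted by strand was not given. APR1 shares 21 bases with AT4G04614, which had 1520 counts over the 9 libraries, and APR3 27 bases with AT4G21980, which had 3537. APR2 shares 225 bases with AT1G62170, which had 6 counts, and 782 bases with the non-coding AT1G08477, which is not among the counted loci. SDI2, with 733 to 2101 counts in a library, shares 431 bases with AT1G04760, which had 247 counts. SULTR4;2 shares 7 bases with AT3G12510, which had 189 counts, and 223 bases with the non-coding AT3G02545, which is not among the counted loci. The part of these neighbours in the members' values was not tested.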

How the data were processed

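Each of the 9 deposited files holds raw read counts for every gene locus in 1 library, which the authors did not normalize. Per the labels, RNA came from ground, frozen rosettes (PureLink kit), and libraries were made with a TruSeq stranded mRNA kit and pooled for sequencing. The tools FastQC and TopHat2 (version 2) and the build TAIR10 are listed in the submitters' processing notes. Which program counted the reads, with what strand setting and how reads with several matches were treated, and the read length, are not given in the sources used here.

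Samples were grouped by the genotype in their labels. The members and gene lists were chosen with earlier results of these data known. CPM is the count over the library's total, and CPM per kb divides it by the union of exon bases. Genes were filtered with filterByExpr (18783 left), and TMM factors ran from 0.949 to 1.03. The test was the quasi-likelihood F test of edgeR 4.0.16 (R 4.3.3), fitted to all 9 libraries at once by genotype alone (6 residual degrees of freedom). Adjusted p-values are Benjamini-Hochberg values over all tested genes, called under 0.05, from this test unless another is named. The SE is the size of the log2 fold change over the square root of F. A permutation test on a single gene with 3 libraries against 3 could not go below p = 0.10. Limits from a count of 0 (3 counts) cover counting error only. The edgeR fit was also run on simulated counts with few genes changed. That setting is unlike these data, so it does not bear on scaling under broad change.

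Named genes were every member, PDX3, the up to 3 genes of each role group with the smallest adjusted p in pdx3-3 among those called in either mutant, and OASA1, SIR, SULTR1;1, SULTR1;2, LSU3, LSU4, SHM7 and SULTR4;1 whatever their values. GGCT2;2, SLIM1 and SERAT3;2 were named after their values were seen.

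Alternatives were median-of-ratios, upper-quartile or no factors, a filter of at least 1 CPM in 3 libraries or none, limma-voom (limma 3.58.1), DESeq2 1.42.0, edgeR's robust variant, totals without organellar genes, a block for the replicate number, fits of the compared groups alone, and each library left out. Leaving out pdx3-3 libraries 1 and 2 together was added after seeing the data.

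Coordinates, exon lengths, promoter windows and coding sequences were read by locus identifier from the RefSeq annotation of TAIR10.1, which held all 10 members. The files carry no coordinates. Motifs were searched on both strands. Protein sequences were not used here. Coding sequences of family members were aligned pairwise to give their identity.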

Additional observations from a re-analysis of the deposited data

How the results depend on the processing

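Of 189 alternative log2 values of the members in pdx3-3 against wild type, 189 kept their direction and call, as did 187 of 189 in pdx3-4, where LSU2 was lost in 2 settings. Between the mutants 176 of 189 did. Leaving out single libraries gave 9 to 9, 8 to 9 and 0 to 3 members called higher and 0 to 0, 0 to 0 and 0 to 1 called lower, for pdx3-3, pdx3-4 and the mutants against each other, in that order. For the other pathway genes it gave 8 to 12, 12 to 14 and 0 to 8 higher and 15 to 18, 17 to 23 and 0 to 3 lower, and for all genes 2963 to 3491, 3270 to 3937 and 246 to 990 higher and 2296 to 3341, 2567 to 3548 and 145 to 826 lower. Without pdx3-3 libraries 1 and 2, an alternative chosen after seeing the data that leaves 1 library in pdx3-3, assumed to vary like the other groups, pdx3-3 had 7 pathway genes higher and 11 lower and 1449 of all genes lower. Between the mutants it then had 0 members higher, 0 pathway genes higher and 0 lower, and 318 of all genes higher and 40 lower. Upper-quartile scaling gave 27 pathway genes lower in pdx3-3 and 5553 and 5317 of all genes lower in pdx3-3 and pdx3-4. Pathway genes called higher between the mutants numbered 3 with DESeq2 and 6 with only the compared groups, and those called lower 1 with median-of-ratios factors, 1 with upper-quartile factors and 0 with library size only. The log2 value of SIR in pdx3-3 turned to -0.070 with upper-quartile scaling, to -0.013 without wild-type library 2 (0.127 at the other end of the single-library range) and to -0.021 without pdx3-3 libraries 1 and 2, that of APK1 in pdx3-3 to 0.021 without wild-type library 3 (range from -0.321), and that of GGCT2;1 between the mutants to -0.11 without pdx3-3 library 2 and -0.024 without pdx3-4 library 3 (range up to 0.169). None of these was called. The causes were not tested. BGLU28, with 4 to 16 counts in a library, failed the filter on low counts and was tested only in the fit without that filter.

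Replicate numbers gave no clear pairing of the libraries: deviations of same-numbered libraries correlated at -0.15 to 0.343 and those of others at -0.311 to 0.318. With 3 libraries per genotype this check cannot exclude a batch shared by same-numbered libraries. With the replicate block, members called higher were again 9, 9 and 2 in the 3 comparisons, pathway genes higher 11, 12 and 2 and lower 17, 22 and 2, and all genes higher 3447, 3739 and 606 and lower 3023, 3179 and 483.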
